A study of Arabidopsis thaliana with 7 samples.

Results

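The genes described here are those whose signal was higher after infection with Pst-DC3000 than after mock treatment in wild-type plants and in 4 WRKY mutant genotypes alike. They are 176 of 22746 non-control probe sets (0.774%), chosen because the signal on each of 5 infected arrays was at least 2 times that on the mock array, with signals below 22 first set to 22. The infected arrays used for this choice were those of wrky18, wrky40, the wrky18 wrky40 double mutant, wrky53 and Col-0. Each comes from a T-DNA knockout line, in which an inserted piece of bacterial DNA interrupts the gene, except Col-0, the wild type. An infected wrky60 knockout array took no part in the choice. The mock array is Col-0 given MgCl2, the only uninfected group, so no mutant has an uninfected sample of its own. All plants were 14 days old, entire rosettes were taken, and the number of plants per sample, the alleles and the time from infection to harvest are not given in the sources used here. Every group is 1 array. No replicate error exists, no p-value was computed, and a difference between arrays cannot be told apart from variation between plants or hybridisations.

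Pst-DC3000 is a strain of the leaf bacterium Pseudomonas syringae pv. tomato. It secretes coronatine, a toxin that mimics jasmonoyl-isoleucine, the active form of the plant hormone jasmonate. The hormone binds the receptor COI1, JAZ repressor proteins are then destroyed, and MYC transcription factors are freed to switch on genes for wound defence, for defensive metabolites and for the breakdown of jasmonate itself. Jasmonate and salicylic acid signalling oppose each other in many settings in Arabidopsis. WRKY18, WRKY40 and WRKY60 are related DNA-binding proteins that can repress defence genes, and WRKY53 is best known as a regulator of leaf senescence.

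Of the 176 probe sets, 70 could be given a gene, 7 match several genes and 99 have no gene in the annotation used. The named share was 39.8%, against 59.1% of all non-control probe sets, so the processes described below rest on the named members alone. The 70 are 70 different genes, 18 with a symbol and 52 given by locus code. Of all 176 probe sets, 15 carry a suffix that marks probes shared by several transcripts, among them that of PDF1.2b. On the mock array 28 members lay below the floor of 22, and for these a ratio to mock is a lower bound wherever the infected signal reached the floor. For 1 of them, with no gene name, the wrky60 signal was below the floor as well, and its ratio there says nothing.

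Label checks on single probe sets gave the following. The WRKY53 signal was 3.07 in wrky53 plants, 79.3 to 141 on the other infected arrays and 358 on the mock array. The remaining targeted genes, WRKY18, WRKY40 and WRKY60, could not be checked, because the annotation used pairs none of them with a probe set of its own. The leaf markers RCA, PRK and SBPASE, enzymes of photosynthetic carbon fixation, had signals of 962 or more on every array, and the 2 markers of root hairs and pollen with a named probe set (EXPA7 and LAT52) lay below the floor on every array. The wrky60 array stood apart, with spike-in controls at a median of 7.18 times the other arrays and 32.9% of probe sets under the floor, where the other 6 had 40.3% to 41.5%.

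The rise was moderate for most members. The median signal of the 176 was 260.1 on the wrky18 array, 265 on wrky40, 286 on the double mutant, 334 on wrky53, 237 on wrky60 and 264 on Col-0 Pst, against 70.1 on the mock array. Taking for each member the lowest of its 5 ratios to mock, 102 members were at or above 2.5, 73 at or above 3, 41 at or above 4, 28 at or above 5 and 6 at or above 10. These ratios chose the members and are given as a description. Of the 6, only AT4G24350 has a gene name here. The other 5 have no single gene in the annotation used, and the highest of them had a lowest ratio of 13.4. The opposite choice, at least 2-fold lower on all 5 arrays, held for 76 probe sets (0.334%).

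**Figure D1:**
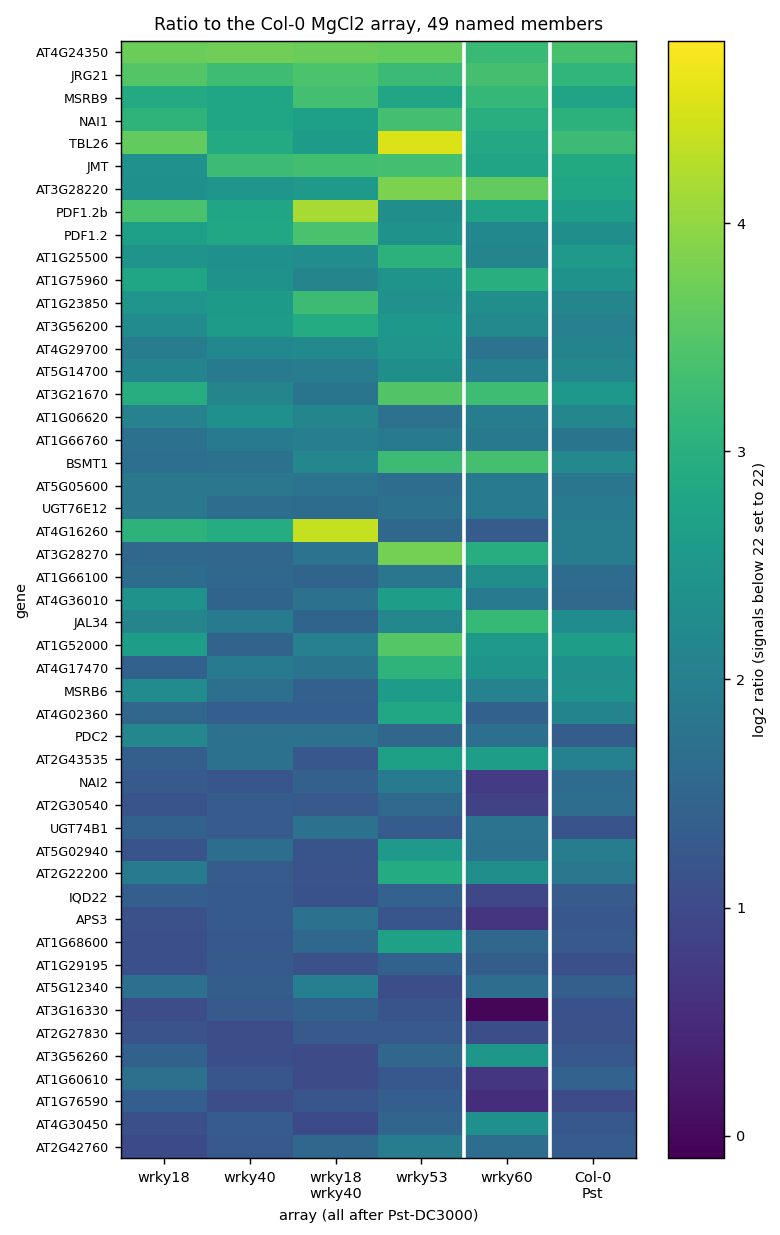
Log2 ratio of signal to the Col-0 MgCl2 array (colour) for 49 named members (rows, from the highest to the lowest value of the smallest ratio over the 5 arrays of the choice) on 6 infected arrays (columns, 1 array each, the wrky60 array between white lines). AT4G24350 and JRG21 are bright on every array, TBL26 is brightest on wrky53, PDF1.2b and AT4G16260 are brightest on the double mutant, and AT3G16330 is dark on wrky60.

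Enzymes that modify jasmonate and salicylate were among the members. JRG21, a 2-oxoglutarate-dependent oxygenase that hydroxylates jasmonic acid and so lowers the active hormone, had a signal of 1289.9 on the wrky18 array, 1111 on wrky40, 1210.0 on the double mutant, 1079 on wrky53, 1174 on wrky60 and 995 on Col-0 Pst, against 114 on the mock array. AT2G38240, which encodes another jasmonate-induced oxygenase of the same kind, had 1972 on the wrky18 array, 1867 on wrky40, 1769.7 on the double mutant, 1413 on wrky53, 2489 on wrky60 and 1573 on Col-0 Pst, against 392 on the mock array. AT5G05600, one more such oxygenase gene, had 1997 on the wrky18 array, 1984 on wrky40, 1868 on the double mutant, 1742 on wrky53, 2115 on wrky60 and 1945 on Col-0 Pst, against 552 on the mock array. All 6 infected arrays lay above the mock array for each of the 3 genes, and the infected arrays lay close together: the highest of the 5 arrays of the choice was 1.3 times the lowest for JRG21, 1.4 for AT2G38240 and 1.15 for AT5G05600. The remaining gene of this oxygenase family, AT3G11180, lay below the floor on every array but wrky60, where it had 23.2. The family was set out after its values had been seen.

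JMT, which makes methyl jasmonate from jasmonic acid, had a signal of 114 on the wrky18 array, 210.3 on wrky40, 219.5 on the double mutant, 223 on wrky53, 149 on wrky60 and 162 on Col-0 Pst, against 13.7 on the mock array. The mock signal lay below the floor, so the rise was at least 5.18-fold on wrky18, the lowest of the 5, and at least 10.1-fold on wrky53, the highest. BSMT1, a relative of JMT that methylates salicylic and benzoic acid, had 71.2 on the wrky18 array, 74.3 on wrky40, 99.3 on the double mutant, 210.4 on wrky53, 224 on wrky60 and 101 on Col-0 Pst, against 1.09 on the mock array. Its infected arrays fell apart: wrky53 and wrky60 lay high, and the other 4 well below both. On wrky53 it was 2.08 times and on wrky60 2.21 times its level on Col-0 Pst. Of 17 listed genes of this methyltransferase family 10 had a named probe set, and only JMT, BSMT1 and AT3G21950 averaged above the floor. AT3G21950 had 23.1 on the wrky18 array, 18.2 on wrky40, 26.7 on the double mutant, 34.2 on wrky53, 37.3 on wrky60 and 30.1 on Col-0 Pst, against 34.2 on the mock array, with no 2-fold difference. GRX480, a glutaredoxin that binds TGA transcription factors and is known from the crossing of salicylate and jasmonate signalling, had 85.8 on the wrky18 array, 90.6 on wrky40, 102 on the double mutant, 114 on wrky53, 151 on wrky60 and 78.7 on Col-0 Pst, against 17.7 on the mock array, at least 3.58-fold above mock on every infected array.

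Other genes of jasmonate action give the setting. OPCL1, which activates the jasmonate precursor for chain shortening, had 369.7 on the wrky18 array, 283 on wrky40, 466 on the double mutant, 369 on wrky53, 388 on wrky60 and 373 on Col-0 Pst, against 143 on the mock array. It missed the choice only because of the wrky40 array, where its ratio to mock was 1.98. MYC3, one of the MYC factors, had 269.9 on the wrky18 array, 244 on wrky40, 246 on the double mutant, 318 on wrky53, 289 on wrky60 and 233 on Col-0 Pst, against 169 on the mock array, under 2-fold on each infected array. MYC4 had signals of 54.7, 37.4, 53.8, 60.1, 34.2 and 49.8 on wrky18, wrky40, the double mutant, wrky53, wrky60 and Col-0 Pst, against 40.3 on the mock array. Over the 3 jasmonate lists of synthesis and turnover, signalling, and response, 8 genes were measured. On Col-0 Pst 6 of these were at least 2-fold above mock and 0 at least 2-fold below, and 5 of the 6 are members. The listed genes DGL and THI2.1 were not counted, because they lay below the floor on every array. THI2.1, a jasmonate response gene of the lists, had 8.1 on Col-0 Pst and 9.6 on the mock array. JMT and BSMT1 were below the floor on the mock array and averaged above it only through the infected arrays. The response thus helped to set which genes were counted. Of all 13674 measured probe sets, 317 were at least 2-fold higher there and 272 at least 2-fold lower. The lists were chosen with earlier results of these data known, and Col-0 Pst is an array of the choice. These counts are a description.

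Antimicrobial peptides and proteins formed another set, with the widest differences between genotypes. PDF1.2, a plant defensin and a common marker of the joint jasmonate and ethylene response, had 184 on the wrky18 array, 205 on wrky40, 305 on the double mutant, 154 on wrky53, 133 on wrky60 and 147 on Col-0 Pst, against 29.1 on the mock array. PDF1.2b, a near copy whose probes may also read its relatives, had 344 on the wrky18 array, 227 on wrky40, 583 on the double mutant, 167 on wrky53, 216 on wrky60 and 205 on Col-0 Pst, against 32.8 on the mock array. Both were highest on the double mutant, at 2.07 and 2.85 times Col-0 Pst, and neither single mutant reached 2-fold above Col-0 Pst. AT4G16260, a glycosyl hydrolase gene of the beta-glucanase kind, had 327 on the wrky18 array, 296 on wrky40, 801 on the double mutant, 115 on wrky53, 97.2 on wrky60 and 153 on Col-0 Pst, against 38.8 on the mock array. Its spread over the 5 arrays of the choice, 6.99-fold, was the widest of all 176 members. The double mutant was 5.25 times, wrky18 2.14 times and wrky40 1.94 times Col-0 Pst, whereas wrky53 was at 0.75 times.

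The remaining peptides did not follow that order. The thionin gene AT1G66100 had 709 on the wrky18 array, 659 on wrky40, 641 on the double mutant, 810.2 on wrky53, 1143 on wrky60 and 703 on Col-0 Pst, against 229 on the mock array, and its spread over the 5 arrays was only 1.26-fold. AT2G43550 and AT2G43535 encode defensin-like proteins and lie 2 genes apart on the chromosome in the gene table. Both were highest on wrky53 and lowest on the double mutant, with spreads over the 5 arrays of 1.56-fold and 2.73-fold. AT2G43550 had 928 on the wrky18 array, 843 on wrky40, 686 on the double mutant, 1068 on wrky53, 926 on wrky60 and 909 on Col-0 Pst, against 291 on the mock array. AT2G43535 had 219 on the wrky18 array, 278 on wrky40, 196 on the double mutant, 536 on wrky53, 524 on wrky60 and 347 on Col-0 Pst, against 83.8 on the mock array. Its wrky60 signal lay close to that on wrky53. AT4G36010, a thaumatin-like pathogenesis-related gene, had 193 on the wrky18 array, 101 on wrky40, 122 on the double mutant, 227 on wrky53, 137 on wrky60 and 109.9 on Col-0 Pst, against 36.3 on the mock array, highest on wrky53 and wrky18.

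Genes of endoplasmic reticulum bodies were also members. These organelles of the mustard family store beta-glucosidases that release toxic products on wounding. NAI1, the transcription factor needed for their formation, had 188 on the wrky18 array, 153 on wrky40, 139.5 on the double mutant, 222 on wrky53, 172 on wrky60 and 182 on Col-0 Pst, against 21.6 on the mock array, at least 6.34-fold above mock on every infected array. NAI2, a structural protein of the bodies, had 272 on the wrky18 array, 259 on wrky40, 299 on the double mutant, 431 on wrky53, 190.0 on wrky60 and 345 on Col-0 Pst, against 113 on the mock array. On wrky60 its ratio to mock was 1.69, below 2-fold, while on the 5 arrays of the choice it ran between 2.3 and 3.83. JAL34, a jacalin-related lectin, had 1208 on the wrky18 array, 1049 on wrky40, 767 on the double mutant, 1241 on wrky53, 2498 on wrky60 and 1348 on Col-0 Pst, against 276 on the mock array, and was lowest on the double mutant at 0.569 times Col-0 Pst. AT1G52000, another jacalin lectin gene, had 280.3 on the wrky18 array, 125 on wrky40, 187 on the double mutant, 518 on wrky53, 266 on wrky60 and 279 on Col-0 Pst, against 45.4 on the mock array. It was low on wrky40, at 0.447 times Col-0 Pst, and high on wrky53, at 1.85 times. It was the only member at least 2-fold below Col-0 Pst on the wrky40 array.

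The list of endoplasmic reticulum body genes holds NAI1, NAI2 and JAL34 but not AT1G52000. It has 4 more measured genes, which are not members. PYK10, the main beta-glucosidase of the bodies, had 610.1 on the wrky18 array, 578 on wrky40, 654 on the double mutant, 783 on wrky53, 892 on wrky60 and 657 on Col-0 Pst, against 365 on the mock array, under 2-fold above mock on Col-0 Pst and at 2.15 times mock on wrky53. The lectin genes JAL33 and JAL22 had ratios of 1.96 and 1.57 on Col-0 Pst, and JAL23 of at least 2.56. All 7 measured genes of the list were thus above mock on Col-0 Pst, 4 of them at least 2-fold. Their median log2 ratio was 1.35, against 0.001 over all 13674 probe sets whose mean signal reached the floor. This list too was chosen with earlier results of these data known, so the values are a description.

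**Figure D2:**
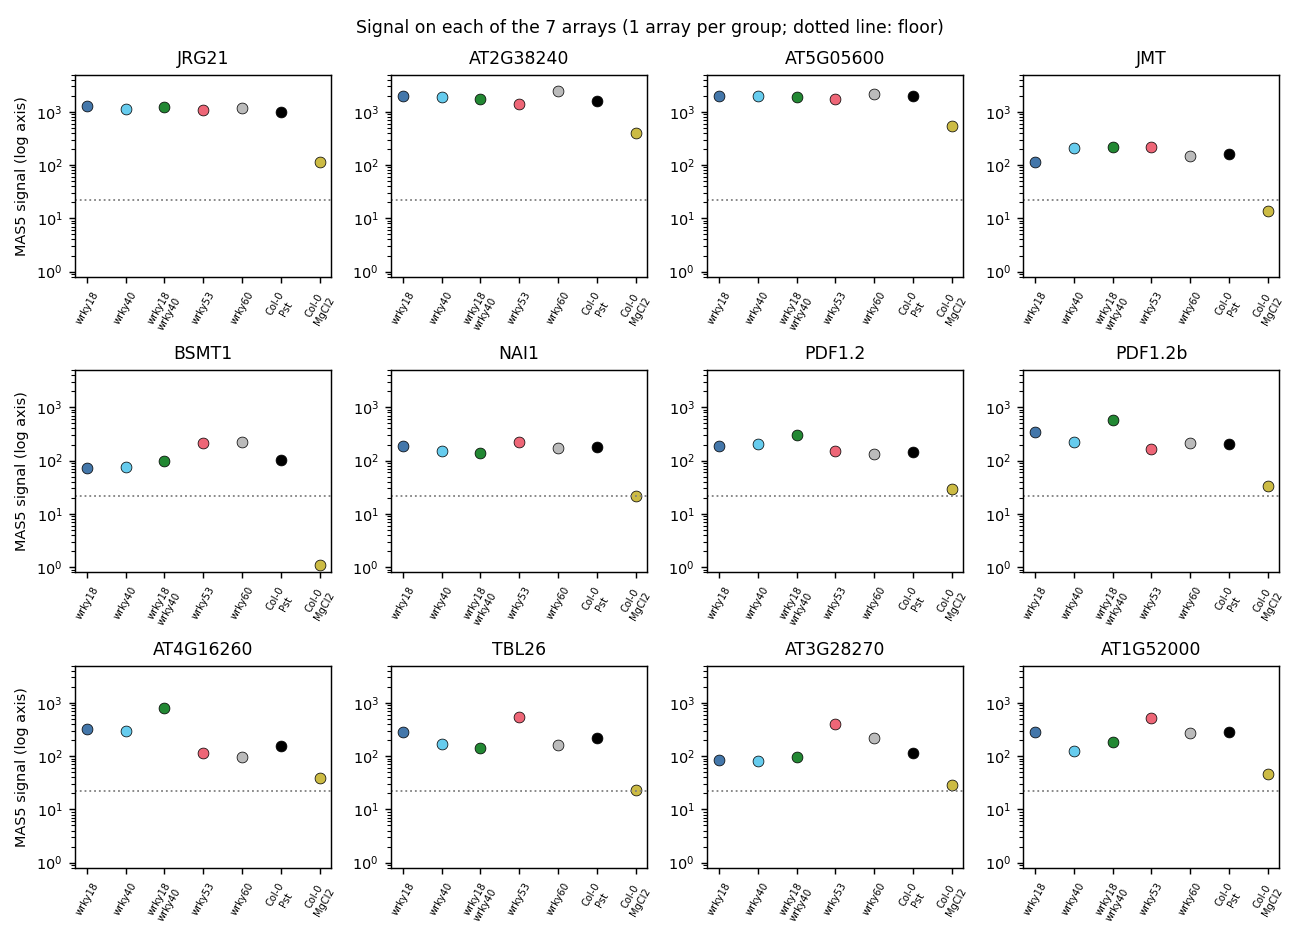
MAS5 signal (log axis) of 12 members on each of the 7 arrays, in the order wrky18, wrky40, double mutant, wrky53, wrky60, Col-0 Pst and Col-0 MgCl2, with 1 point per array and the floor of 22 as a dotted line. The oxygenase genes in the top row are level over the infected arrays, PDF1.2, PDF1.2b and AT4G16260 peak on the double mutant, and TBL26, AT3G28270 and AT1G52000 peak on wrky53.

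Redox enzymes came next. Methionine sulfoxide reductases repair oxidised methionine in proteins. MSRB9 had 651 on the wrky18 array, 604 on wrky40, 887 on the double mutant, 614 on wrky53, 782 on wrky60 and 596 on Col-0 Pst, against 87.8 on the mock array, highest on the double mutant. MSRB6 had 223 on the wrky18 array, 151 on wrky40, 122 on the double mutant, 279.6 on wrky53, 196 on wrky60 and 249 on Col-0 Pst, against 46.5 on the mock array, and was the only member at least 2-fold lower on the double mutant than on Col-0 Pst, at 0.492 times. The 3 other measured genes of the family did not reach 2-fold on Col-0 Pst, where the ratio to mock was 0.598 for MSRB3, 1.59 for MSRB5 and 0.966 for MSRA5. The glutaredoxin gene AT2G30540 had 69.3 on the wrky18 array, 76.5 on wrky40, 74.1 on the double mutant, 91.3 on wrky53, 55.1 on wrky60 and 96 on Col-0 Pst, against 30.6 on the mock array, and fell below 2-fold above mock on wrky60.

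Transport genes among the members encode carriers of amino acids, nitrate, sugar and other small compounds. AT3G56200, of the amino acid transporter family, had 216 on the wrky18 array, 271 on wrky40, 337 on the double mutant, 256 on wrky53, 208 on wrky60 and 185 on Col-0 Pst, against 45 on the mock array, highest on the double mutant. AT3G21670 (NPF6.4), a member of the nitrate and peptide transporter family, had 379 on the wrky18 array, 215 on wrky40, 171 on the double mutant, 541 on wrky53, 473 on wrky60 and 279 on Col-0 Pst, against 48.8 on the mock array, lowest on the double mutant and highest on wrky53. SWEET17, which moves fructose across the vacuolar membrane, had 273 on the wrky18 array, 235 on wrky40, 337 on the double mutant, 337 on wrky53, 243 on wrky60 and 266 on Col-0 Pst, against 94.2 on the mock array. Among genes of the MATE efflux family, AT1G66760 had a spread of only 1.2-fold, with 509 on the wrky18 array, 587 on wrky40, 609 on the double mutant, 585 on wrky53, 561 on wrky60 and 532 on Col-0 Pst, against 152 on the mock array. AT1G61890 and AT5G44050, of the same family, had lowest ratios to mock of 2.84 and at least 2.06. AT1G68600, of the aluminium-activated malate transporter family, had 47.2 on the wrky18 array, 52.4 on wrky40, 64.3 on the double mutant, 143 on wrky53, 62.9 on wrky60 and 52.8 on Col-0 Pst, against 20.9 on the mock array, with wrky53 apart from the other infected arrays at 2.71 times Col-0 Pst.

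Hydrolases of several kinds were members, and a phosphorylase-family gene was grouped with them. AT4G24350, of the phosphorylase superfamily, had the highest lowest ratio of the named members, with 1065 on the wrky18 array, 1095 on wrky40, 1055 on the double mutant, 1023 on wrky53, 747 on wrky60 and 851 on Col-0 Pst, against 81.7 on the mock array. AT4G29700, an alkaline-phosphatase-like gene, had 411 on the wrky18 array, 475 on wrky40, 493 on the double mutant, 574 on wrky53, 355 on wrky60 and 452 on Col-0 Pst, against 104 on the mock array. AT4G17470, of the alpha/beta hydrolase fold, had 110.0 on the wrky18 array, 156 on wrky40, 142 on the double mutant, 348 on wrky53, 221 on wrky60 and 211 on Col-0 Pst, against 40.9 on the mock array, and AT2G32150, a haloacid-dehalogenase-like hydrolase gene, had lowest and highest ratios of 3.58 and 5.61 over the 5 arrays. The lipase-like genes AT1G31550 and AT2G03980 were highest on wrky53, at 1.61 and 1.69 times Col-0 Pst.

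Genes of conjugation, sulfur and carbon metabolism had smaller ratios. UGT76E12, a UDP-glucosyltransferase, had 604 on the wrky18 array, 524 on wrky40, 518 on the double mutant, 555 on wrky53, 642 on wrky60 and 622 on Col-0 Pst, against 167 on the mock array, a spread of 1.2-fold over the 5 arrays. UGT74B1, which adds glucose in glucosinolate synthesis, had 712 on the wrky18 array, 661 on wrky40, 897 on the double mutant, 667 on wrky53, 904 on wrky60 and 603 on Col-0 Pst, against 267 on the mock array. APS3, an ATP sulfurylase that activates sulfate, had 226 on the wrky18 array, 256 on wrky40, 348 on the double mutant, 244 on wrky53, 166 on wrky60 and 248 on Col-0 Pst, against 105 on the mock array, and was below 2-fold on wrky60. PDC2, a pyruvate decarboxylase of fermentation, had 817 on the wrky18 array, 603 on wrky40, 599.8 on the double mutant, 516 on wrky53, 580.2 on wrky60 and 462 on Col-0 Pst, against 181 on the mock array, highest on wrky18. In the lists of aliphatic glucosinolate genes and of indole and camalexin genes, 0 of the other 3 measured genes are members. BCAT4, a chain-elongation enzyme of aliphatic glucosinolates, had ratios to mock of 2.72 on wrky53 and 1.89 on Col-0 Pst. AT1G26380 (FOX1) had 70.0 on the wrky18 array, 76 on wrky40, 291 on the double mutant, 38.3 on wrky53, 21.4 on wrky60 and 28.5 on Col-0 Pst, against 117 on the mock array.

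A few members belong to none of the groups above or are transcription factor genes. TBL26, of a family that acetylates cell wall polysaccharides, had 282 on the wrky18 array, 169.7 on wrky40, 140.2 on the double mutant, 531 on wrky53, 165 on wrky60 and 219 on Col-0 Pst, against 22.9 on the mock array. AT3G28270 had 83.8 on the wrky18 array, 81.4 on wrky40, 97.1 on the double mutant, 394 on wrky53, 223 on wrky60 and 113 on Col-0 Pst, against 28.6 on the mock array. AT3G28220, which lies 5 genes away in the gene table and encodes a TRAF-like domain protein, had 449 on the wrky18 array, 484 on wrky40, 506 on the double mutant, 1251 on wrky53, 1074 on wrky60 and 613 on Col-0 Pst, against 87.6 on the mock array. For both of these wrky53 and wrky60 were the highest arrays. AT2G22200, a transcription factor gene of the ERF family, had 81.8 on the wrky18 array, 55.3 on wrky40, 48.9 on the double mutant, 167 on wrky53, 111 on wrky60 and 80.3 on Col-0 Pst, against 13.3 on the mock array. AT1G23850, of unknown function, was highest on the double mutant, with 121 on the wrky18 array, 131 on wrky40, 209.6 on the double mutant, 114 on wrky53, 112 on wrky60 and 96.1 on Col-0 Pst, against 20.4 on the mock array. Of the other ERF-family, CCT-domain and PLATZ transcription factor genes among members, AT2G44940 ran from at least 2.25 to at least 3.6 times mock over the 5 arrays, AT5G53420 between 2.45 and 4.77, and AT1G76590 between 2.02 and 2.58.

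The lists of senescence, salicylate, auxin, abscisic acid, anthocyanin and ethylene genes gave no member. Coverage was thin: of 230 genes in 14 lists only 48 had a named probe set, and 11 of these are members. SAG101, the 1 measured salicylic acid gene, had 28.5 on the wrky18 array, 24.1 on wrky40, 36.1 on the double mutant, 24.5 on wrky53, 38.5 on wrky60 and 31.2 on Col-0 Pst, against 54.2 on the mock array. WRKY6, from the senescence list, had 130.1 on the wrky18 array, 149 on wrky40, 240.2 on the double mutant, 64 on wrky53, 70.2 on wrky60 and 110.2 on Col-0 Pst, against 189 on the mock array, and NOL, a chlorophyll b reductase, 70.1 on the wrky18 array, 79.9 on wrky40, 58.9 on the double mutant, 99.4 on wrky53, 86.1 on wrky60 and 105 on Col-0 Pst, against 104 on the mock array. The cold and drought gene COR15A had 1387 on the wrky18 array, 1113 on wrky40, 778 on the double mutant, 1379 on wrky53, 1216 on wrky60 and 1072 on Col-0 Pst, against 840.5 on the mock array. COR47, the other measured gene of its list, was below mock on every infected array. It ran from 232 on wrky60 to 588 on wrky40, against 779 on the mock array. GH3.3, which joins auxin to amino acids, had 202 on the wrky18 array, 144 on wrky40, 131 on the double mutant, 121 on wrky53, 118 on wrky60 and 175 on Col-0 Pst, against 65.8 on the mock array, above 2-fold on Col-0 Pst and below it on wrky53. In these lists GH3.3 was the only gene at least 2-fold above mock on Col-0 Pst and WRKY53 the only one at least 2-fold below, and no ethylene gene was covered. Absence from the group is therefore no statement about most genes of these pathways.

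The wrky60 array, which did not choose the members, held most of them. At least 2-fold above mock were 154 of 176 (87.5%), against 7.86% of all probe sets on the same array, and 174 of 176 were above mock. The mock array is shared with the choice, so its own error enters both sides. The median ratio to mock of the members was 3.68 on wrky60, and 3.40, 3.17, 3.39, 4.26 and 3.42 on wrky18, wrky40, the double mutant, wrky53 and Col-0 Pst. Relative to the range of those 5 arrays, 98 members lay within it on wrky60, 33 above and 45 below. The shares of all probe sets within this range or above mock were not computed. Nothing is therefore read from these counts or from the 174 above mock. Set against Col-0 Pst, 3 members (1.70%) were at least 2-fold higher on wrky60 and 4 (2.27%) at least 2-fold lower, where all probe sets gave 6.12% and 2.54%. BSMT1, AT3G56260 and AT4G30450 were the 3 higher ones. The part of the array's own difference in spike-in and floor values in these counts was not tested.

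Of the 22 members that did not reach 2-fold on wrky60, 8 have a gene name. AT3G16330 was level with mock there, at 0.982 times, with 48.7 on the wrky18 array, 56.6 on wrky40, 62.8 on the double mutant, 52.4 on wrky53, 22.9 on wrky60 and 50.8 on Col-0 Pst, against 23.3 on the mock array. AT1G76590 was at 1.45, APS3 at 1.58, AT1G60610 at 1.6 and NAI2 at 1.69 times mock. AT1G52720, AT2G30540 and IQD22, a calmodulin-binding protein gene, were at 1.8, 1.8 and 1.92. All 8 had lowest ratios below 2.5 on the 5 arrays of the choice, as did 74 of the 176 members.

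**Figure D3:**
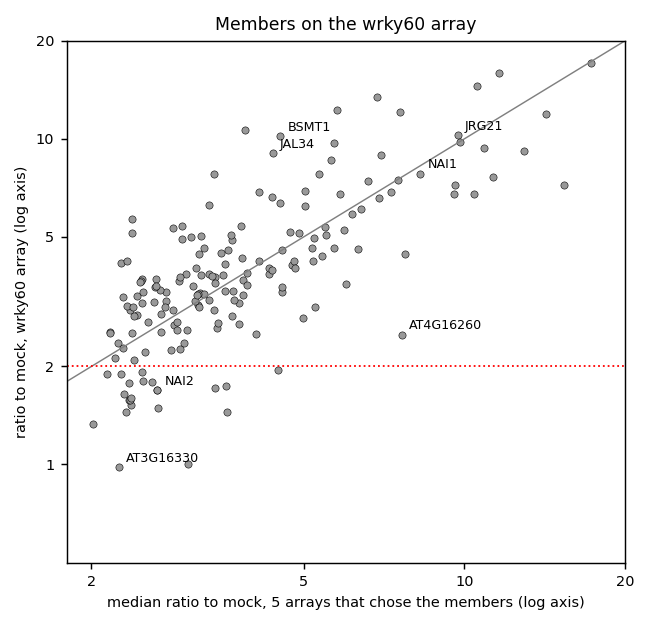
Ratio to the mock array on wrky60 (vertical log axis) against the median ratio over the 5 arrays that chose the members (horizontal log axis), 1 point for each of 176 members, with the line of equality in grey and 2-fold in red dots. Most points lie near the line, 22 lie below 2-fold, and AT3G16330 lies at the level of the mock array.

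How far the infected signals differed between genotypes was described by the spread, the highest over the lowest of the 5 infected arrays of the choice. No mutant has an uninfected array. A difference present before infection therefore cannot be told apart from one in the response. Its median over members was 1.64, with 64 members under 1.5, 50 at or above 2 and 13 at or above 3. Over all 13674 measured probe sets the median was 1.41, and 8.17% reached 2, against 28.4% of members. By level, the 78 members with mean signals of 100 to 400 had a median spread of 1.70, against 1.36 for 4762 other probe sets at that level, and the 69 members above 400 had 1.42, against 1.32 for 1644 others. These 5 arrays also chose the members, so the spreads are a description and nothing is read from their distance to other probe sets. AT5G05600 and AT2G27830 had the narrowest spreads of the named members, 1.15 and 1.15.

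Among members the spread fell most when the wrky53 array was left out. Without wrky53 the median spread of members was 1.36 and 12 members reached 2. Without the double mutant 34 reached 2, and without any other single array 48 to 50, with medians of 1.58 to 1.60. Leaving out an array can only keep or lower a spread. The same was not computed for the other probe sets, so these counts describe the members only. The wrky53 array was the highest of the 5 for 111 of 176 members (63.1%), against 27.9% of measured probe sets. The double mutant was the highest for 36 (20.5%), at about the 20.2% of measured probe sets. Shares on the rest were 9.66% on wrky18, 3.98% on wrky40 and 2.84% on Col-0 Pst, against 22.0%, 16.9% and 13.0% of measured probe sets. The double mutant was the lowest for 51 members (29.0%), near the 25.1% of measured probe sets. These shares rest on the arrays of the choice too.

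Relative to Col-0 Pst, the median log2 ratio of members was 0.30 on wrky53 (a fold of 1.23), with 143 members above 0 and 33 below, while measured probe sets had a median of 0.02. It was 0.01 on wrky18, -0.05 on wrky40 and -0.02 on the double mutant, where measured probe sets had -0.02, 0.00 and -0.03. Members chosen without wrky53 and Col-0 Pst, that is on the other 3 arrays, numbered 198, and their median on wrky53 over Col-0 Pst was 0.29, with 158 above 0. The wrky53 median was 0.40 for the 29 members with mean signals under 100, 0.35 for the 78 between 100 and 400 and 0.22 for the 69 above 400. At least 2-fold above Col-0 Pst on wrky53 were 12 members (6.82%), against 0.158% of all probe sets. At least 2-fold below was 1 member (background 0.497%), a count that the choice limits. Both arrays chose the members, so nothing is read from the distance of these shares to the background. The 7 named ones among the 12 are TBL26, AT3G28220, BSMT1, AT3G28270, AT4G36010, AT2G22200 and AT1G68600.

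On the double mutant 7 members (3.98%) were at least 2-fold above Col-0 Pst (background 0.954%) and 1 was at least 2-fold below (background 0.141%). The named ones above were PDF1.2b, PDF1.2, AT1G23850 and AT4G16260, and the one below was MSRB6. On wrky18 1 member (0.568%) was at least 2-fold higher (background 0.114%), AT4G16260, and 1 at least 2-fold lower (background 0.321%). On wrky40 0 members were higher (background 0.0879%) and 1 was lower (background 0.101%), AT1G52000. The choice itself limits the lower counts: a member had to be at least 2 times mock on each of the 5 arrays, so the 114 members below 4 times mock on Col-0 Pst could not be 2-fold lower on wrky18, wrky40, the double mutant or wrky53. Nothing is read from those lower counts or from their background shares. These counts all share the Col-0 Pst array, and with no replicate none has a test. All of these arrays also chose the members. The backgrounds take in probe sets under the floor, whereas every member averaged at or above it. The higher counts are therefore a description too.

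**Figure D4:**
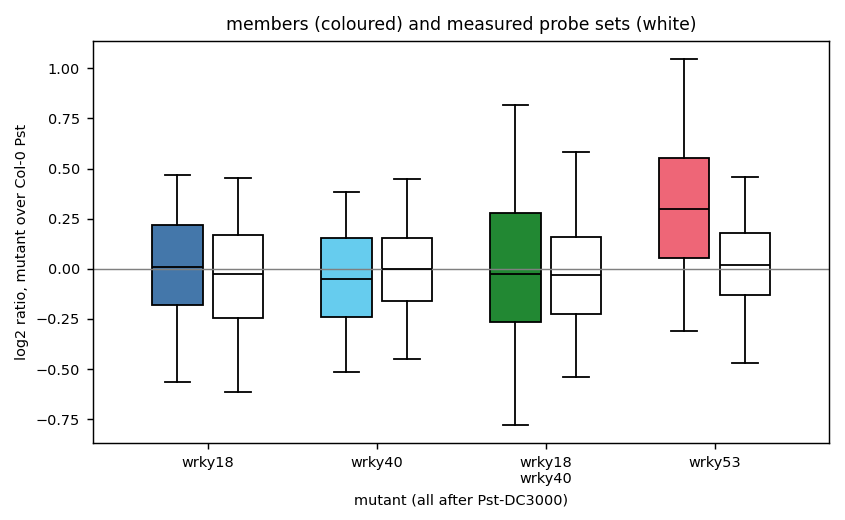
Log2 ratio of each mutant over Col-0 Pst for 176 members (coloured boxes) and 13674 measured probe sets (white boxes): line at the median, box from the 25th to the 75th percentile, whiskers at the 5th and 95th percentiles. The wrky53 members lie mostly above 0 with a median of 0.30, and the other 3 medians lie between -0.05 and 0.01.

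The wrky53 and double mutant arrays were then compared directly, which leaves Col-0 Pst out. The median log2 ratio of wrky53 over the double mutant was 0.34 for members and 0.05 for measured probe sets, with 124 members above 0 and 52 below. At least 2-fold higher on wrky53 were 33 members (18.8%), against 0.743% of all probe sets, and at least 2-fold lower 11 (6.25%), against 1.97%. Both counts are limited by the choice, which used both arrays. The shares of all probe sets also take in those under the floor, whereas every member averaged at or above it. Nothing is therefore read from the distance between these shares. Members chosen without the wrky53 and double mutant arrays numbered 196, and their median log2 ratio was 0.35, with 138 above 0. The highest named ratios were those of AT3G28270, 4.05-fold, TBL26, 3.79-fold, AT2G22200, 3.41-fold, and AT3G21670, 3.17-fold. On the other side the double mutant was 6.99-fold above wrky53 for AT4G16260, 3.49-fold for PDF1.2b and 1.99-fold for PDF1.2. By role, the median log2 ratio of wrky53 over the double mutant was 0.69 for 8 hydrolase genes, 0.68 for 4 genes of endoplasmic reticulum bodies and lectins, 0.51 for 7 transport genes and for 4 transcription factor genes, 0.34 for 7 antimicrobial genes, 0.23 for 4 redox genes, -0.10 for 5 jasmonate and salicylate enzymes and -0.22 for 5 genes of conjugation, sulfur and carbon metabolism. These role groups were formed after values had been seen and are a description. The hydrolase group counts AT4G24350 of the phosphorylase superfamily, whereas the glycosyl hydrolase gene AT4G16260 was counted among the antimicrobial genes.

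**Figure D5:**
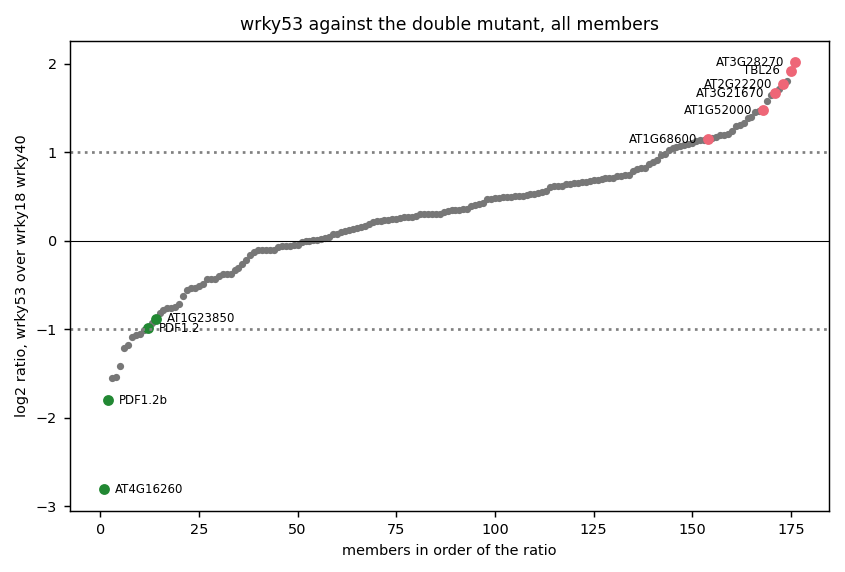
Log2 ratio of wrky53 over the wrky18 wrky40 double mutant for each of 176 members, in order of the ratio, with dotted lines at 2-fold and named examples in colour. Above the upper line lie 33 members, with AT3G28270 and TBL26 at the end, and below the lower line 11, with AT4G16260 and PDF1.2b at the end.

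At the threshold itself the choice separates near neighbours. Just inside were AT2G42760, AT4G30450 and AT1G76590, with lowest ratios of 2, 2.01 and 2.02. Just outside were OPCL1 at 1.98, AT1G62660 at 1.95 and AT3G51450 at 1.95. Between 2 and 2.1 lay 26 probe sets, and between 1.9 and 2 another 26.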

How the data were processed

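RNA from entire rosettes was hybridised to 7 single-colour Affymetrix ATH1 arrays, 1 per group. The authors deposited linear-scale intensities, 1 signal per probe set, computed with MAS5 per the submitters' processing notes (version not stated there). The software combines the probes of each set and scales every array, and the trimmed means (2%) of the deposited arrays were all 100.0. The values were used as deposited, after 64 control probe sets were left out, with signals below 22 set to 22. Ratios of signals below that floor are bounds. The number of arrays limits the precision.

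The members and lists were chosen with earlier results of these data known. Probe sets were named through the platform annotation and the gene table of assembly TAIR10.1, which matched 13436 of 22746. Genes were named by a fixed rule: the 15 members with the highest lowest ratio, the 8 widest and 8 narrowest spreads, for each mutant the 3 highest and 3 lowest against Col-0 Pst, members of 14 gene lists, up to 5 below 2-fold on wrky60, and 3 on each side of the threshold. It gave 49 members. Other names and the 8 role groups were added after values had been seen. Roles are textbook knowledge. No keyword family had 3 or more members. Promoter motifs were not examined, and no sequence was used here. Alternatives were other floors, quantile, median and cyclic loess scaling (log2 of signal plus 1, 3 iterations), an added constant, other thresholds and sets of arrays, and 1 value per gene. The functions were tested on simulated data. Scaling used limma 3.58.1 in R 4.3.3, and all else Python 3.11.15 with pandas 2.3.3 and numpy 2.4.6.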

Additional observations from a re-analysis of the deposited data

Results flagged for a closer look

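For 10 of the 176 members the wrky53 and double mutant arrays lay at least 1.5-fold on opposite sides of Col-0 Pst, in each case wrky53 above and the double mutant below, and for 0 members the reverse. The 1.5-fold limit was set after the data had been seen, and the difference between the 2 mutants was not tested, since each is 1 array. Both share the Col-0 Pst array. No member was at least 1.5-fold higher on both arrays or lower on both. The choice limits these counts, because a member had to be at least 2 times mock on both arrays. The matching share over all probe sets was not computed, so nothing is read from the counts. The 6 with a gene name differed between wrky53 and the double mutant by 3.79-fold for TBL26, 3.41-fold for AT2G22200, 3.17-fold for AT3G21670, 2.76-fold for AT4G02360, 2.73-fold for AT2G43535 and 2.61-fold for AT5G02940. TBL26 was at 2.42 times Col-0 Pst on wrky53 and 0.64 times on the double mutant. AT2G22200 was at 2.08 and 0.61 times, and AT5G02940, an ion channel-like gene, at 1.51 and 0.58 times on the same arrays.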

How the results depend on the processing

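The number of members was 396 at a 1.5-fold threshold and 73 at 3-fold, and 70 where 1 value per named gene was taken, by the highest probe set or by the mean, because unnamed probe sets then fell out. With other floors, an added constant or another scaling it lay between 127 and 205, with the wrky60 array added it was 154, and without any 1 of the 5 arrays of the choice 180.0 to 196. On wrky60 the share of members at 2-fold ran from 84.0% with median centring to 92.9% with the added constant. The wrky53 median over Col-0 Pst lay between 0.25 and 0.34 under every alternative run, and those of the other 3 mutants between -0.08 and 0.08, with the sign of the wrky18 and double mutant medians turning between settings. The wrky53 array was highest for 54.3% to 65.7% of members, and its median over the double mutant was 0.27 to 0.41, both examined after the data had been seen. Of the 49 named genes 38 were still at least 2-fold on the 5 arrays with a floor of 44, 39 with the added constant, 46 with quantile and 47 with cyclic loess scaling, and all 49 with a floor of 11 or median centring. With a floor of 44 BSMT1, AT3G28270, AT2G22200 and AT1G68600 were among the 11 that dropped out. The value followed for each of these genes was its lowest ratio to mock over the 5 arrays. Of 294 such values under 6 alternatives, 26 moved beyond 1.5-fold, 16 of them with a floor of 44, and 0 with another scaling of the arrays. Differences of single genes between genotypes were not run under the alternatives. No paired analysis was possible because every group holds 1 array. Signals near the floor limit what can be read from 28 members below it on the mock array.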
